A study of Mus musculus with 68 samples.

Results

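The 9 genes described here are markers of the choroid plexus and of the meninges, the tissues that border the brain and its fluid spaces. They were listed by symbol (Ttr, Kl, Folr1, F5, Sostdc1, Igf2, Igfbp2, Ogn and Dcn) and found through their Ensembl identifiers among the 18088 genes of the only table of expression values, and all 9 were among the 17922 genes with a mean of at least 5 that entered the tests. They were followed through 68 RNA-seq libraries of mouse prefrontal cortex, a region that contains neither tissue except where its surface is covered by meninges. The mice were of the strain C57BL/6J, either heterozygous for Adnp (HT) or wild type (WT), and the labels do not say what the Adnp allele is. Each received fluoxetine, a serotonin reuptake inhibitor, or lithium, a mood stabilizer, or vehicle through the milk of the mother from postnatal day 3 to day 24, and tissue was taken on day 25. There were 5 female and 5 male HT fluoxetine libraries, 5 and 5 WT fluoxetine libraries, 4 and 5 HT lithium libraries, 5 and 3 WT lithium libraries, 8 and 8 HT vehicle libraries, and 8 and 7 WT vehicle libraries. All mice, the vehicle groups included, were dosed before weaning through the dam, so the dose that reached a pup is not given. The comparisons asked what the HT genotype changed and what each drug changed in each genotype.

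The choroid plexus is a fringe of epithelium inside the ventricles that secretes cerebrospinal fluid and passes hormones, vitamins and growth factors from blood to brain. Its epithelial cells make transthyretin at a very high level, which makes Ttr a sensitive sign of choroid plexus in a brain dissection. The meninges are membranes on the brain's surface, built by fibroblasts that lay down collagens and small proteoglycans and release insulin-like growth factor signals and retinoic acid to the cortex beneath. Fibroblasts of the same kind follow blood vessels into the tissue.

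Libraries held 22.36M to 37.53M recovered reads (median 30.74M, M for mega). Levels are given as normalized counts, the deposited values, which are read counts divided by 1 size factor per library. The libraries fell into 3 sets on the levels of 361 pseudogenes, a split that the labels do not name. Every fluoxetine library was in set 1 (28 libraries), together with 8 of the HT vehicle group. Every lithium library was in set 2 (28), with 6 HT and 5 WT vehicle libraries. Set 3 (12) was made of 2 HT and 10 WT vehicle libraries. Drug, genotype and set are therefore partly tied, and each comparison below is given over all libraries and again within 1 set where a set holds both sides. The targeted gene, Adnp, was higher and not lower in libraries labelled HT, with a log2 difference of 0.32 under vehicle (limma adjusted p = 0.0021) and of 0.30 over the 3 treatments (adjusted p = 1.7e-05), or 0.25 within sets (adjusted p = 0.00023). Within set 2 under vehicle it was 0.19 and did not pass (adjusted p = 0.885). Its level ran from 1730 to 2845 in HT vehicle libraries (median 2334) and from 1077 to 2290 in WT vehicle libraries (median 1978), and reads summed per gene do not show which allele they came from, so this does not check the genotype labels.

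The bases before the transcription start were read for 5 members. Printed here are windows of Igfbp2, Kl and Ogn, which moved with other members or differed by genotype in the results below. The windows of Igf2, which did both, and of F5 were searched but are not printed, nor is the second Igfbp2 window. The sequences are from RefSeq (GRCm38.p6), 250 bases that end just before the start, given 5′ to 3′ on the strand of the gene. Capitals mark the letters CACGTG, an E-box.
Igfbp2 (chr1:72824230-72824479, plus strand): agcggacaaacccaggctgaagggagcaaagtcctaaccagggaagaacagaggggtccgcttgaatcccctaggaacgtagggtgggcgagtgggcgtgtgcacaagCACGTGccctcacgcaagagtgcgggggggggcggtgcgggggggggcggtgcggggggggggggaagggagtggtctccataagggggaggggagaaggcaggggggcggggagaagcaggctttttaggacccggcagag
Kl (chr5:150952357-150952606, plus strand): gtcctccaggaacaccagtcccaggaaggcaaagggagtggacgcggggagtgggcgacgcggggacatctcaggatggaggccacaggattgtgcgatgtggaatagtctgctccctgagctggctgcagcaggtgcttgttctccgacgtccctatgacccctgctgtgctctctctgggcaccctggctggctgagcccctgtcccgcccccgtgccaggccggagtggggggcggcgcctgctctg
Ogn (chr13:49607765-49608014, plus strand): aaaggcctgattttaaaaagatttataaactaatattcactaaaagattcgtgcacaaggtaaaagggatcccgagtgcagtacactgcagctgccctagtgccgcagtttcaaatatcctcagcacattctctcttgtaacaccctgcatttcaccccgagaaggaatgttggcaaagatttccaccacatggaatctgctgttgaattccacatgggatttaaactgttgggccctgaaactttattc
RefSeq entries were used for 9 starts of 5 members, Kl, F5, Igf2 (4 starts), Igfbp2 (2 starts) and Ogn. Folr1, Sostdc1 and Dcn had no entry. The windows were searched on both strands for TAATCC, the core letters of Otx factors such as the choroid plexus regulator Otx2, for TGTTTAC, the core letters of forkhead factors such as the meningeal regulator Foxc1, and for CACGTG. None of these words overlaps another. The only match in the 9 windows was the CACGTG of the first Igfbp2 start. Among 32851 windows of the same length in the table, 6.25% held TAATCC, 3.17% held TGTTTAC and 6.02% held CACGTG. The Igfbp2 window was 67.2% G and C with 14 CpG pairs, and the Kl window was 66.8% G and C with 13 CpG pairs. The Ogn window had 42.0% and 4 CpG pairs, against a median of 52.4% and 6 pairs over all windows.

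The members fell into abundant meningeal genes and scarce choroid plexus genes. Igf2, which codes for insulin-like growth factor 2 (chromosome 7, 142650766 to 142666816, GRCm38, minus strand), ran from 1994 to 4707 normalized counts over the 68 libraries, with a median of 3072. Igf2 overlaps the antisense gene Igf2os, and reads of the pair cannot be told apart unless strand was used when they were counted, which is not stated. Igfbp2, a secreted binding protein that carries insulin-like growth factors (chromosome 1, 72824503 to 72852474, plus strand), ran from 825 to 1985 with a median of 1197. Dcn, decorin, a small leucine-rich proteoglycan that binds collagen (chromosome 10, 97479609 to 97518143, plus strand), ran from 291 to 821 with a median of 390. Ogn, osteoglycin, a proteoglycan of the same family (chromosome 13, 49608046 to 49624501, plus strand), ran from 121 to 496 with a median of 222. None of these 4 genes came near 0 in any library.

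The choroid plexus members were lower and more variable. Kl codes for klotho, the co-receptor for FGF23, which is also made by some neurons (chromosome 5, 150952607 to 150993817, plus strand). It ran from 14.1 to 233 normalized counts with a median of 44.3. F5, coagulation factor V (chromosome 1, 164151838 to 164220277, plus strand), ran from 13.7 to 83.7 with a median of 41.4. Sostdc1, a secreted antagonist of BMP and Wnt signals (chromosome 12, 36314139 to 36318452, plus strand), ran from 1.15 to 49.5 with a median of 12.8. Folr1, the folate receptor that carries folate across the choroid plexus (chromosome 7, 101858331 to 101870788, minus strand), ran from 0.815 to 33.8 with a median of 5.96, and 8 libraries had fewer than 3 reads. Ttr, transthyretin, the carrier of thyroid hormone and retinol-binding protein (chromosome 18), ran from 0 to 5536 with a median of 28.2. It had 0 reads in 7 libraries, a count that allows up to 3 reads, and fewer than 3 reads in 12. A defining gene of the choroid plexus was thus at or near 0 in part of the libraries.

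Per kilobase of exon, where genes can be set against each other, the median level was 648 normalized counts per kb for Igfbp2 and 537 for Igf2. It was 86.6 for Ogn and 66.8 for Dcn, then 23.7 for Ttr, 7.19 for Sostdc1, 5.57 for F5, 4.75 for Kl and 2.60 for Folr1. Neighbours in this order overlapped over the libraries within the pairs Igfbp2 and Igf2, and Ogn and Dcn, and among the 5 choroid plexus members. Dcn and Ttr, next to each other in the order, overlapped too, with 49.9 to 141 per kb for Dcn and 0 to 4668 per kb for Ttr. The standard deviation over libraries on the log2(value + 1) scale was 2.63 for Ttr and lay between 0.51 and 0.81 for the other 4 choroid plexus members. It was 0.43 for Ogn, 0.31 for Dcn and 0.27 for both Igf2 and Igfbp2.

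**Figure D1:**
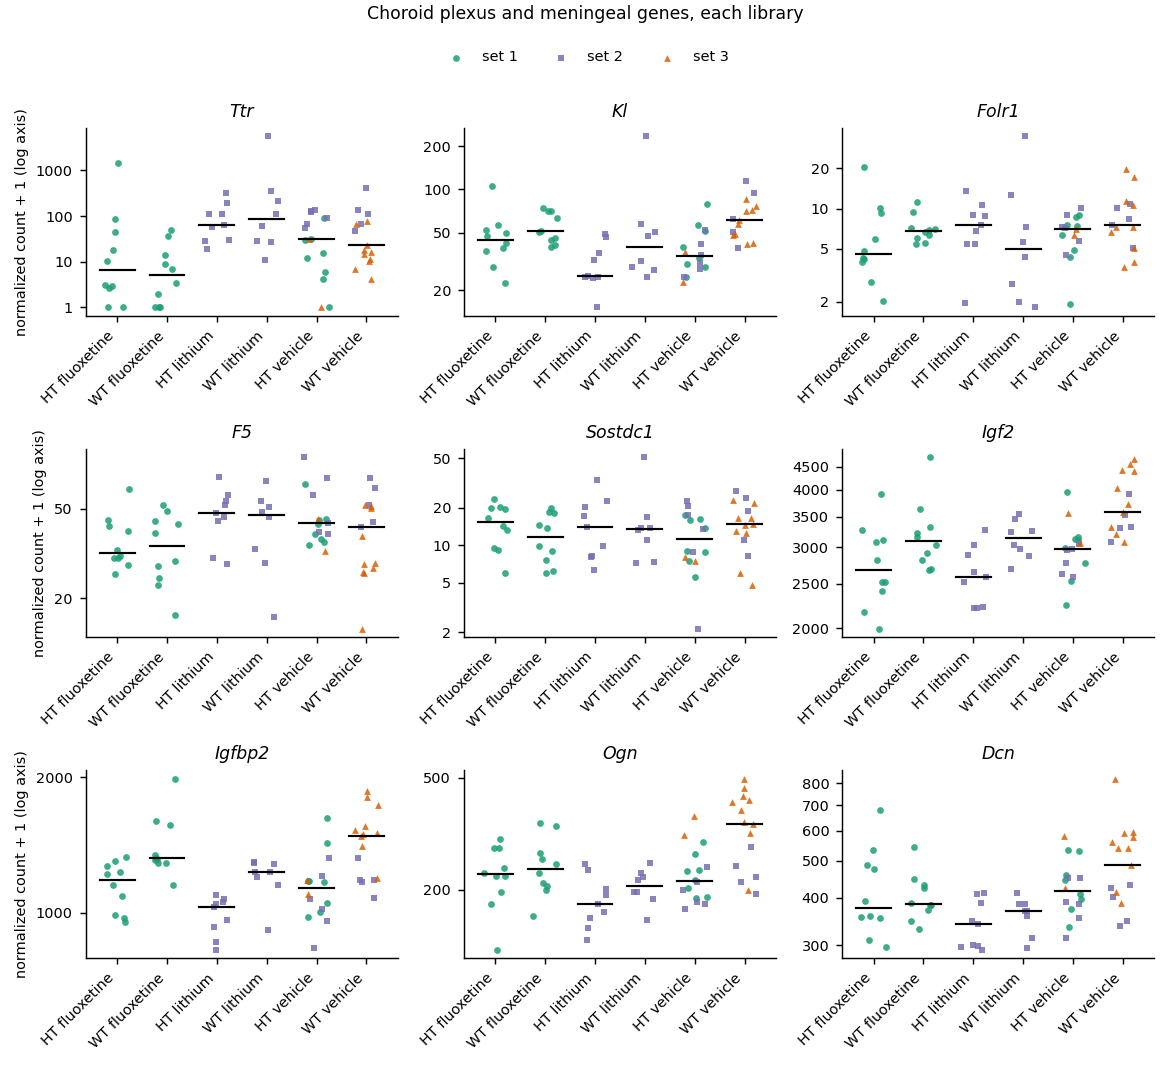
Level of each of the 9 genes in all 68 libraries, as normalized count on a log axis, by genotype and drug, 1 point per library with the colour giving the library set and a bar at the median. Ttr spans 0 to 5536 while Igfbp2 spans 825 to 1985, and the highest Ogn values lie among the set 3 libraries.

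Ttr was high in 2 libraries and low or at 0 in most others. It ran from 0 to 1443 in HT fluoxetine libraries (median 5.76), from 0 to 48.6 in WT fluoxetine libraries (median 4.16) and from 18.2 to 320 in HT lithium libraries (median 63.2). In WT lithium libraries it ran from 10.2 to 5536 (median 84.4), in HT vehicle libraries from 0 to 136 (median 30.1) and in WT vehicle libraries from 3.25 to 401 (median 22.3). All 6 arms overlapped. The 7 libraries at 0 were 2 HT fluoxetine, 3 WT fluoxetine and 2 HT vehicle libraries. Ttr also followed the library sets, with a median of 7.01 in set 1, 99.4 in set 2 and 14.4 in set 3, and 9 of its 10 highest values were from set 2. In RNA of whole tissue, fewer cells of a type and less RNA per cell cannot be told apart, and this holds for every result below.

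The female WT lithium library of replicate 5 had the highest Ttr, 5536 normalized counts or 201-fold the median of 27.6 of the 66 libraries other than the top pair. The same library also had the highest Kl (233), Folr1 (33.8) and Sostdc1 (49.5) of all libraries. Its F5 (44.8), Igf2 (2866), Igfbp2 (1295), Ogn (215) and Dcn (368) lay inside the range of the others. Of 23 further choroid plexus genes in the table, 6 were above all the other 66 libraries and 6 were at least 2-fold over their median. Those at least 2-fold higher included Clic6, a chloride channel protein (146 against 19), and Mfrp, a membrane protein of the frizzled-related kind (59.7 against 6.78). Cldn2, a claudin of leaky tight junctions (51.1 against 7.06), and Otx2, the homeobox regulator of choroid plexus (25.2 against 5.13), were among them too. Enpp2, autotaxin, stood at 9941 against 5719, whereas Cdhr4 stood at 2.36 against 8.07. The list holds scarce genes such as Cldn2 and Mfrp beside abundant ones, with medians of 1187 for Trpm3, 595 for Cab39l and 591 for Sulf1. Which cells the reads of the abundant genes came from was not tested. Counts and medians over this list, here and below, are therefore not a measure of choroid plexus alone.

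This library was not high in choroid plexus genes alone. Of 9 genes of striatal neurons, 7 were at least 2-fold over the same median, among them the dopamine receptor Drd2 (233 against 38.9) and the adenosine receptor Adora2a (553 against 111). None of 29 genes of meningeal and perivascular fibroblasts was at least 2-fold higher. The part of striatal tissue in its values was not tested.

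The male HT fluoxetine library of replicate 5 had the second highest Ttr, 1443 normalized counts or 52.3-fold the same median. Kl (105) and Folr1 (19.5) were also high in it. Of the 23 further choroid plexus genes, 2 were above all the other 66 libraries and 5 were at least 2-fold over the median, namely Otx2 (23.3), Mfrp (27.9), Cldn2 (26.1), Clic6 (50.3) and the water channel Aqp1 (124). The 2 above all were Mfrp and Cldn2. Among the other 66 libraries Otx2 reached 26.2, Clic6 143 and Aqp1 375. Aqp1 also reached 123 in another male of this group. Of the 9 striatal genes 0 were at least 2-fold higher, and of the 29 fibroblast genes 0. The next highest Ttr value was 401, in a female WT vehicle library, so these 2 libraries stood apart from the rest. Both were singled out after their values were seen.

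**Figure D2:**
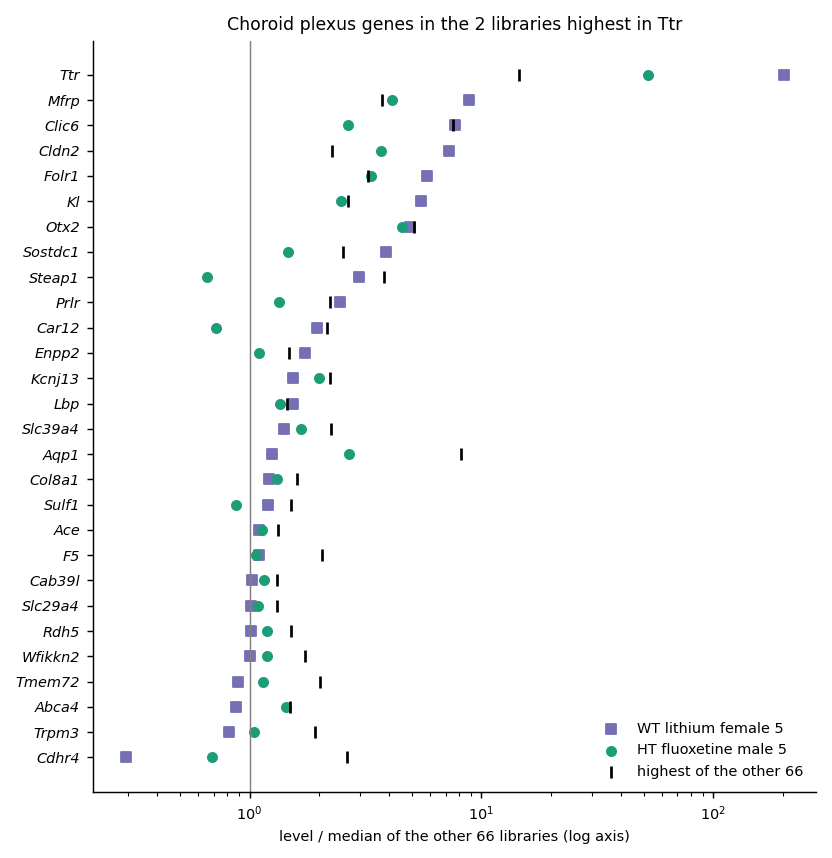
Level of the 5 choroid plexus members and of 23 further choroid plexus genes in the 2 libraries with the highest Ttr, as ratio to the median of the other 66 libraries on a log axis, with a tick at the highest of those 66. Ttr stands at 201-fold in the WT lithium female and 52.3-fold in the HT fluoxetine male, while F5 lies near 1 in both.

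Over all 68 libraries Ttr was not tied to most other members. Of 8 relations computed on the log2(value + 1) scale, only that with F5 passed after Benjamini-Hochberg adjustment over the 8 (Pearson's r = 0.35, permutation p = 0.00414 and adjusted 0.0331 over 100000 resamples, Spearman's rho = 0.37, adjusted 0.0193). Without the 2 libraries farthest from the median of Ttr, r with F5 was again 0.35. Within sets it was 0.46 in set 1, -0.15 in set 2 and 0.01 in set 3, so the relation did not hold within sets 2 and 3. Both genes were highest in set 2, whose libraries gave 9 of the 10 highest Ttr and 8 of the 10 highest F5 values. For Ttr and Kl, r was 0.07 over all libraries and -0.21 without the same 2 libraries, in which both genes were high. Ttr and Dcn had r = 0.07 over all libraries, but 0.57 in set 1, 0.28 in set 2 and 0.68 in set 3. With Igf2, Igfbp2 and Ogn the r of Ttr was also positive within every set.

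With group means subtracted, the 8 genes whose levels were most like that of Ttr over the 68 libraries were Abhd17c (r = 0.54), Cyp4f15 (0.53), Icam1 (0.52), Grn (0.52), Hexim2 (0.52), Lamb1 (0.52), Emid1 (0.51) and Irf1 (0.50). None of them is in the choroid plexus list. These values share library and depth and are given as a description. Among the 100 genes most like Ttr, 2 of the 22 tested genes of the choroid plexus list and 2 of the 29 of the fibroblast list appeared. Those 100 were taken from the 17922 tested genes, with the members set aside. The median r with Ttr was 0.17 for the choroid plexus list and 0.15 for the fibroblast list, against -0.005 over all genes. For 6 microglia genes, of which 0 were among the 100, it was 0.26.

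The meningeal members varied together. Dcn and Ogn had r = 0.80 over 68 libraries (rho = 0.78), Dcn and Igf2 r = 0.72 (rho = 0.70), and Dcn and Igfbp2 r = 0.60 (rho = 0.56). Each of these 3 had a permutation p of 1e-05, the smallest that 100000 resamples can give, also after Benjamini-Hochberg adjustment. Without the 2 libraries farthest from the median of Dcn, r was 0.81 with Ogn, 0.70 with Igf2 and 0.57 with Igfbp2. The relations kept a positive sign within every set. For Dcn and Ogn, r was 0.60 in set 1, 0.79 in set 2 and 0.60 in set 3. For Dcn and Igf2 it was 0.70, 0.59 and 0.61, and for Dcn and Igfbp2 0.34, 0.39 and 0.50.

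With group means subtracted, the genes most like Dcn were Gjb2, a gap junction protein of the meninges (r = 0.79), Ranbp3l (0.78), Slc13a4, a sulfate transporter (0.76), and Tfap2b, Efemp1, Dab2, Foxc1 and Gpx8 (each within 0.75 and 0.76). Gjb2, Slc13a4 and Foxc1 are in the list of fibroblast genes. Of the 29 tested genes of that list, 19 were among the 100 genes most like Igf2, 12 among those most like Dcn, 9 for Ogn and 5 for Igfbp2. The 100 were taken from 17922 tested genes. Other lists also followed these members. For Igf2 the median r was 0.69 for fibroblast genes and 0.47 for astrocyte genes, of which 2 of 6 were among the 100. For Igfbp2 it was 0.51 for fibroblast genes and 0.64 for olfactory bulb genes, of which 0 of 8 were among the 100.

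**Figure D3:**
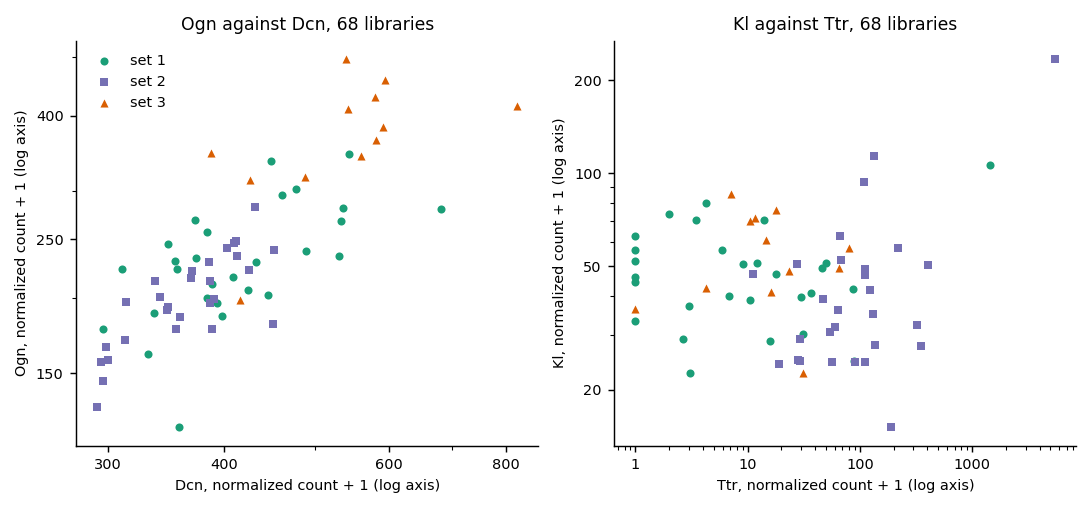
Each library's Dcn against Ogn (left) and Ttr against Kl (right), in normalized counts with 1 added on log axes, coloured by library set. Dcn and Ogn lie along 1 line in all sets (r = 0.80), whereas Ttr and Kl form a cloud (r = 0.07) with the WT lithium female library of 5536 Ttr at its far corner.

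In vehicle mice, Igf2, Igfbp2, Kl and Ogn were lower in HT than in WT libraries when all libraries were used. Igf2 ran from 2244 to 3957 in HT libraries (median 2977) and from 3075 to 4669 in WT libraries (median 3588). The log2 difference, HT minus WT, was -0.34 (SE 0.08, limma adjusted p = 0.0025). The ranges overlapped, but no WT library lay below 3075. Igfbp2 ran from 832 to 1621 in HT libraries (median 1135) and from 1076 to 1861 in WT libraries (median 1479), a log2 difference of -0.32 (SE 0.08, limma adjusted p = 0.0031). Kl ran from 21.6 to 78.8 (median 33.3) in HT libraries and from 38.2 to 113 (median 59.9) in WT libraries. Its log2 difference was -0.78 (SE 0.20, limma adjusted p = 0.0075), or 0.584-fold on the log2(value + 1) scale, and the ranges overlapped. Ogn ran from 169 to 364 in HT libraries (median 214) and from 192 to 496 in WT libraries (median 342), a log2 difference of -0.49 (SE 0.13, limma adjusted p = 0.0076), with overlapping ranges.

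The other 5 members did not pass under vehicle. Dcn ran from 312 to 580 in HT libraries (median 416) and from 336 to 821 in WT libraries (median 487), with a log2 difference of -0.20 (SE 0.09, limma adjusted p = 0.136). Ttr differed by -0.43 on the log2 scale (SE 0.83, limma adjusted p = 0.762), the widest error of any member. In all, 4 of 9 members fell and 0 rose, where limma called 15.0% of all genes, with 7.21% of all genes lower.

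Part of these differences followed the library sets. Most WT vehicle libraries were in set 3 and most HT vehicle libraries in sets 1 and 2. Within WT vehicle libraries alone, set 3 minus set 2, Ogn was higher by 0.69 (SE 0.17, limma adjusted p = 0.00093), Dcn by 0.48 (adjusted p = 0.0016) and Igfbp2 by 0.40 (adjusted p = 0.0018). Ogn ran from 198 to 496 in set 3 (median 396) and from 192 to 282 in set 2 (median 221). F5 was lower in set 3 by a log2 difference of -0.71 (limma adjusted p = 0.0175), a call lost without WT vehicle female 6 (adjusted p = 0.0589) or WT vehicle male 7 (adjusted p = 0.11). Igf2 (0.16, adjusted p = 0.287), Kl (-0.29, adjusted p = 0.476) and Ttr (-2.76, SE 1.17, adjusted p = 0.0508) did not pass. Ttr passed when any 1 of 14 libraries was left out (limma adjusted p 0.0345 to 0.0498). Among these, only WT vehicle female 3, WT vehicle female 8 and WT vehicle male 5 belong to the comparison. Without any of the others the difference stayed at -2.76, as they enter only the shared estimate of the spread. Limma called 42.4% of all genes between these sets, which were drawn from the same data, so 4 of 9 members is near that share.

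Markers of other tissue moved with set 3 as well. In WT vehicle libraries 8 of 8 olfactory bulb genes were higher in set 3 than in set 2, with a median log2 difference of 2.69, and 12 of 29 fibroblast genes were higher and 1 lower. All 8 oligodendrocyte genes and 7 of 9 striatal genes were lower, with medians of -0.78 and -1.26. None of these genes was at 0 in every library, and the median over all genes was 0.01. Their part in the values of the members was not tested.

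Within set 2, which held 6 HT and 5 WT vehicle libraries, 0 of 9 members passed by limma, where 0.536% of all genes did (2 of 9 had an unadjusted p under 0.05). Igf2 ran from 2587 to 3052 in these HT libraries (median 2867) and from 3075 to 3928 in these WT libraries (median 3322). The 2 groups did not overlap, and the log2 difference was -0.29 (SE 0.13, limma adjusted p = 0.806). Kl ran from 23.5 to 51.6 in HT libraries (median 31.9) and from 38.2 to 113 in WT libraries (median 61.6), a log2 difference of -1.07 (SE 0.35, limma adjusted p = 0.276). The difference of Kl was larger than that over all libraries and the difference of Igf2 smaller, both with larger errors. Igfbp2 differed by -0.15 (adjusted p = 0.999), Ogn by -0.23 (adjusted p = 0.999) and Dcn by 0.00 (adjusted p = 0.999) in the same fit. Olfactory bulb genes had a median log2 difference of 1.54 between HT and WT libraries of set 2 and striatal genes one of -0.56, with 0 called in either list.

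Under fluoxetine and under lithium no member passed between HT and WT in the fit of all libraries, where limma called 1.98% and 2.51% of all genes, and none under lithium within set 2, where it called 4.49%. EdgeR and DESeq2 also called 0 in both arms, and 2 members under fluoxetine and 3 under lithium had an unadjusted limma p under 0.05. Igfbp2 ran from 953 to 1327 in HT fluoxetine libraries (median 1182) and from 1150 to 1985 in WT fluoxetine libraries (median 1318), a log2 difference of -0.30 (SE 0.09, limma adjusted p = 0.0956). Within set 1, which held all fluoxetine libraries, this difference passed (limma adjusted p = 0.0366), 1 of 9 members where 2.85% of all genes were called. Under lithium Igfbp2 ran from 825 to 1090 in HT libraries (median 1028) and from 912 to 1295 in WT libraries (median 1228), a log2 difference of -0.26 (limma adjusted p = 0.196). HT values were thus the lower ones under each treatment, with overlap each time.

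Igf2 ran from 1994 to 3924 in HT fluoxetine libraries (median 2671) and from 2673 to 4707 in WT fluoxetine libraries (median 3102). It ran from 2207 to 3276 in HT lithium libraries (median 2586) and from 2687 to 3537 in WT lithium libraries (median 3135). The log2 differences were -0.22 under fluoxetine (SE 0.10, limma adjusted p = 0.317) and -0.25 under lithium (SE 0.11, limma adjusted p = 0.239). Kl ran from 21.5 to 105 in HT fluoxetine libraries (median 43.7) and from 39.1 to 72.7 in WT fluoxetine libraries (median 50.1). It ran from 14.1 to 47.9 in HT lithium libraries (median 23.8) and from 23.5 to 233 in WT lithium libraries (median 38.6), the lowest medians of any treatment in both genotypes. Its log2 differences were -0.28 (limma adjusted p = 0.723) and -0.58 (limma adjusted p = 0.302).

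Averaged over the 3 treatments, a comparison added after the data had been seen, Igfbp2, Igf2 and Kl were lower in HT. Igfbp2 ran from 825 to 1621 in the 35 HT libraries (median 1071) and from 912 to 1985 in the 33 WT libraries (median 1311), a log2 difference of -0.29 (SE 0.05, limma adjusted p = 5.9e-05) or 0.817-fold. Igf2 ran from 1994 to 3957 in HT libraries (median 2820) and from 2673 to 4707 in WT libraries (median 3300), with a difference of -0.27 (SE 0.05, limma adjusted p = 0.00039) or 0.831-fold. Kl ran from 14.1 to 105 in HT libraries (median 35) and from 23.5 to 233 in WT libraries (median 49.8), with a difference of -0.54 (SE 0.14, limma adjusted p = 0.0076) or 0.686-fold. The ranges overlapped for all 3. Of 9 members 3 fell, where limma called 7.43% of all genes. Ogn (-0.25, adjusted p = 0.0756) and Dcn (-0.07, adjusted p = 0.618) did not pass, though Ogn passed when any 1 of 4 libraries was left out (limma adjusted p 0.0332 to 0.0488).

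The same 3 members passed when each treatment was compared within 1 library set, in set 1 for fluoxetine and in set 2 for lithium and vehicle. Those sets hold every fluoxetine and every lithium library. Only the vehicle part of the average therefore used other libraries than before, and this is not a separate test. The log2 differences were -0.23 for Igfbp2 (SE 0.06, limma adjusted p = 0.0051), -0.25 for Igf2 (SE 0.07, adjusted p = 0.0134) and -0.64 for Kl (SE 0.17, adjusted p = 0.0148). That is 3 of 9 members where 4.65% of all genes were called. In that fit the olfactory bulb genes had a median difference of 0.65 with 0 of 8 called, and the striatal genes one of 0.02 with 0 of 9 called. Ogn stood at -0.17 (limma adjusted p = 0.424). Without WT vehicle male 7, Igf2 stood at -0.23 and did not pass (limma adjusted p = 0.0546).

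**Figure D4:**
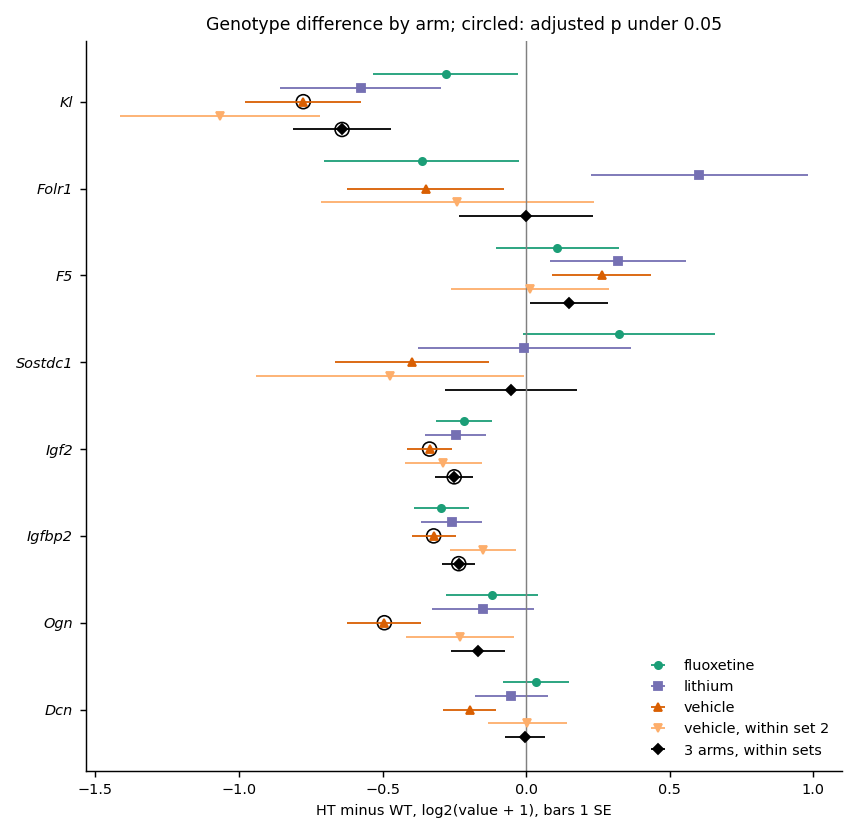
HT minus WT log2 difference of 8 members under each treatment with all libraries, under vehicle within set 2, and over the 3 treatments within sets, with error bars of 1 SE (limma). Circled points have an adjusted p under 0.05, and Ttr is left out because its errors run from 0.63 to 1.28. The points of Igf2, Igfbp2 and Kl lie left of 0 in all 5 comparisons shown.

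Related genes were counted by genotype, in comparisons that called 7.43% of all genes over all libraries and 4.65% within sets. Averaged over the 3 treatments, 1 of 15 tested genes of the insulin-like growth factor pathway fell in HT and 0 rose, and the median of that list was -0.01 beside 0.00 for all genes. The one that fell was Igfbp6, which binds IGF2 with preference, at -0.25 (limma adjusted p = 0.00046) over all libraries and -0.26 (adjusted p = 0.0072) within sets. Under vehicle H19, the imprinted neighbour of Igf2, differed by -0.60 (limma adjusted p = 0.033), but no gene of the pathway passed within set 2. Of 22 tested genes of choroid plexus epithelium, 1 rose and 2 fell over the 3 treatments, with a list median of 0.06. Enpp2, which codes for the lysophosphatidic acid-producing enzyme autotaxin, fell by 0.26 (limma adjusted p = 8.7e-07), and within sets by 0.28 (adjusted p = 1.1e-05). Without the 2 libraries highest in Ttr, the median of Enpp2 was 5719 normalized counts, against 27.6 for Ttr. The part of choroid plexus in the reads of Enpp2 was not tested, so its fall is not given as a change of that tissue. Ace, angiotensin-converting enzyme, was higher by 0.19 over all libraries (limma adjusted p = 0.0074) and was not called within sets.

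The counts for fibroblast, vessel and astrocyte genes stand beside the same 7.43% and 4.65% of all genes. Of 29 tested genes of meningeal and perivascular fibroblasts, 2 rose and 1 fell in HT over the 3 treatments, and the list median was -0.03. Col6a3, a collagen VI chain, was higher by 0.21 (limma adjusted p = 0.00017), and Mgp, matrix Gla protein, differed by -0.21 (adjusted p = 0.014). Within sets both passed again, at 0.20 and -0.27. Of 12 endothelial and mural genes 4 fell, among them Myh11, smooth muscle myosin, at -0.26 (limma adjusted p = 0.0015), and 1 fell within sets. Of 6 astrocyte genes 3 fell in either fit. The summed level of the 29 fibroblast genes ran from 23763 to 37743 in HT vehicle libraries (median 31458) and from 24297 to 43317 in WT vehicle libraries (median 31345). The part of such differences in the lower Igf2 and Igfbp2 was not tested.

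In WT mice lithium libraries had less Ogn, Dcn, Igfbp2 and Igf2 than vehicle libraries when all libraries were used. Ogn ran from 155 to 248 under lithium (median 205) and from 192 to 496 under vehicle (median 342), a log2 difference of -0.65 (SE 0.16, limma adjusted p = 0.0014). Dcn ran from 294 to 411 under lithium (median 368) and from 336 to 821 under vehicle (median 487), a difference of -0.45 (SE 0.11, limma adjusted p = 0.0018). The highest lithium values lay below the vehicle medians for both genes. Igfbp2 (-0.27, SE 0.09, limma adjusted p = 0.024) and Igf2 (-0.27, SE 0.10, adjusted p = 0.0256) also passed in the fit of all libraries. Folr1 (-0.79, limma adjusted p = 0.0638) and Kl (-0.50, adjusted p = 0.11) did not pass. Without WT lithium male 1, Igfbp2 stood at -0.20 (limma adjusted p = 0.141) and Igf2 at -0.23 (adjusted p = 0.0905), and without WT lithium male 2 Igf2 had an adjusted p of 0.0533. Folr1 passed when any 1 of 5 libraries was left out (limma adjusted p 0.0129 to 0.0486). So 4 of 9 members fell and 0 rose, in a comparison where limma called 36.1% of all genes, with 17.5% of all genes lower.

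Within 1 library set the differences of those 4 members were smaller, and those of Folr1, Kl and F5 were not. All lithium libraries were in set 2, and against the 5 WT vehicle libraries of that set 0 of 9 members passed by limma, where 0.664% of all genes did (1 of 9 had an unadjusted p under 0.05). Ogn differed by -0.19, Dcn by -0.13, Igf2 by -0.16 and Igfbp2 by 0.00 on the log2 scale. Folr1 differed by -0.83 (SE 0.45), Kl by -0.72 (SE 0.33) and F5 by -0.50 (SE 0.26), against -0.02 for F5 over all libraries. Ttr stood at 1.73 with all libraries (SE 1.03, limma adjusted p = 0.186) and at -0.11 within set 2. Over all libraries edgeR and DESeq2 each called 5 of 9 members, those 4 and Ttr. In that comparison edgeR called 6760 of 17922 genes and DESeq2 6933 of 17920. EdgeR on recovered reads gave 2.69 for Ttr with all libraries (adjusted p = 0.00726), a value in which the single library of 5536 takes part. Without that library, WT lithium female 5, the limma difference of Ttr was 1.06. Kl (-0.77, limma adjusted p = 0.0057) and Folr1 (-1.04, adjusted p = 0.0129) then passed, so that 6 of 9 members fell. The share of all genes called in that fit is not given, while it was 36.1% with all libraries. Folr1 had 1, 1 and 4 recovered reads in the WT lithium males, values near the floor.

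The lists of related genes were counted between lithium and vehicle in WT, beside the 36.1% of all genes called, 17.5% lower. Of 29 fibroblast genes 15 fell and 1 rose, with a median log2 difference of -0.29 beside -0.02 for all genes. Col3a1, a collagen III chain, differed by -0.42 (limma adjusted p = 0.00041), Gjb2 by -0.52 (adjusted p = 0.00062) and Foxc1, a forkhead regulator of meningeal development, by -0.48 (adjusted p = 0.00072). Of 9 small leucine-rich proteoglycans 5 fell, among them Aspn at -0.42 and Bgn at -0.34 (limma adjusted p = 0.0056 for both). Of 15 genes of the insulin-like growth factor pathway 4 rose and 5 fell, with Igfbp4 at 0.40 (limma adjusted p = 6.3e-06) and Igfbp5 at -0.35 (adjusted p = 0.0019). Of 22 choroid plexus genes 2 rose and 3 fell, with a median of 0.00. Within set 2, where 0.664% of all genes were called, 0 genes of any of these lists passed, and the median of the fibroblast list was -0.06.

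**Figure D5:**
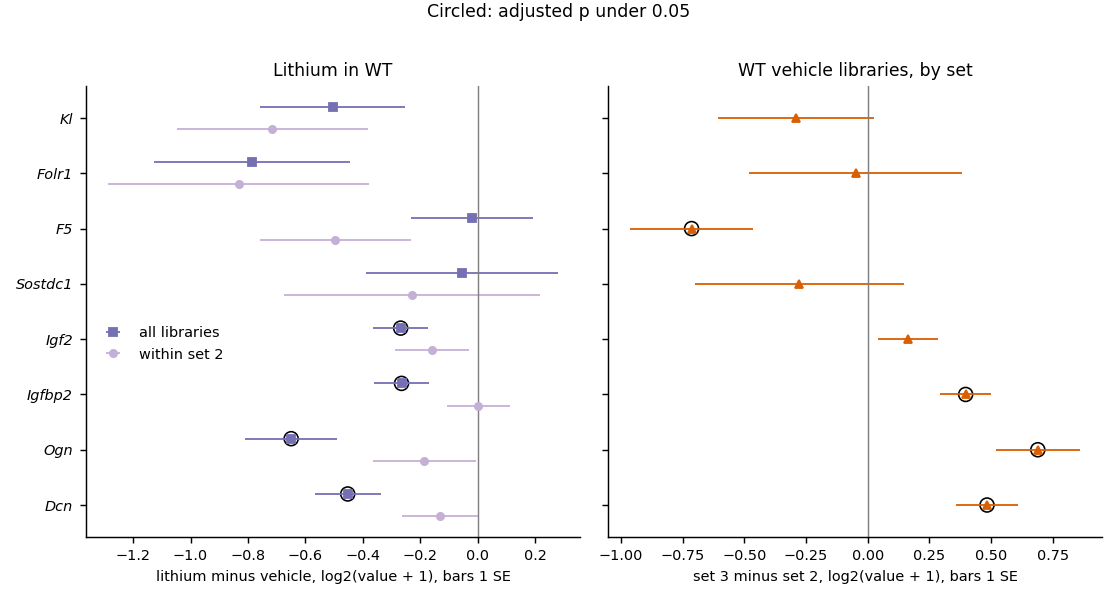
Log2 difference of 8 members in WT, lithium minus vehicle over all libraries and within set 2, beside set 3 minus set 2 in WT vehicle libraries, with error bars of 1 SE and circles at an adjusted p under 0.05 (limma). Ogn and Dcn lie at -0.65 and -0.45 for lithium with all libraries, at -0.19 and -0.13 within set 2, and at 0.69 and 0.48 between the vehicle sets.

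In HT mice lithium changed no member past the threshold. The comparison called 0 of 9 members by limma, where 1.52% of all genes passed, and 0 of 9 within set 2, where 0.162% did. EdgeR and DESeq2 called 0 as well, and 3 members had an unadjusted limma p under 0.05 over all libraries and 0 within set 2. The log2 differences ran from -0.31 to 0.34 in 8 members and stood at 1.55 for Ttr (SE 0.97). Within set 2 the sign of Ttr turned, to -0.46 (SE 1.11), and F5 stood at -0.19 against 0.04 over all libraries. Dcn ran from 291 to 411 in HT lithium libraries (median 340) and from 312 to 580 in HT vehicle libraries (median 416), and Ogn from 131 to 246 in HT lithium libraries (median 177) and from 169 to 364 in HT vehicle libraries (median 214). Both had the lower median under lithium and overlapping ranges. The effect of lithium did not differ between the genotypes past the threshold for any member (0 of 9 by limma, edgeR and DESeq2, 1 with an unadjusted limma p under 0.05, where limma called 2.8% of all genes).

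Fluoxetine changed no member past the threshold in either genotype. In HT 0 of 9 members passed by limma, where 1.22% of all genes did, and the log2 differences ran from -1.10 for Ttr (SE 0.93) to 0.41 for Sostdc1. The value of Ttr depended on the method, at -0.40 with limma within set 1 and 0.12 with both edgeR and DESeq2 over all libraries. Within set 1 it was 0 of 9, where 0.167% of all genes passed. No member of either HT fit had an unadjusted limma p under 0.05, and edgeR and DESeq2 called 0. In WT 0 of 9 passed, where 5.43% of all genes did, and the differences of all 9 lay below 0. Of the 9, 4 had an unadjusted limma p under 0.05, edgeR called 0 and DESeq2 called 2. Over all genes DESeq2 called 1242 of 17920 there. Ttr was the farthest from 0 there, with 0 to 48.6 in fluoxetine libraries (median 4.16) and 3.25 to 401 in vehicle libraries (median 22.3), a log2 difference of -2.66 (SE 0.94, limma adjusted p = 0.0778). Ogn ran from 160 to 345 under fluoxetine (median 236) and from 192 to 496 under vehicle (median 342), a difference of -0.40 (SE 0.15, limma adjusted p = 0.088), which passed without WT vehicle male 6 (-0.47, adjusted p = 0.0268). No set holds both WT fluoxetine and WT vehicle libraries, so drug and set cannot be told apart in WT. The difference between the genotypes in the effect of fluoxetine passed for 0 of 9 members and 0.0% of all genes, with 0 members at an unadjusted limma p under 0.05 and 0 called by edgeR or DESeq2.

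Sex did not move the members past the threshold. Female minus male differences passed for 0 of 9 members by limma, where 0.1% of all genes passed, and ran from -0.87 for Ttr (SE 0.58) to 0.45 for Folr1 (SE 0.19). Folr1 was the 1 member with an unadjusted limma p under 0.05, and edgeR and DESeq2 called 0. The difference between the sexes in the effect of genotype under vehicle passed for 0 of 9 members and 0.0% of all genes, with 0 members at an unadjusted p under 0.05 and 0 by edgeR or DESeq2.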

How the data were processed

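RNA of prefrontal cortex was sequenced from 68 mice, 1 library each, with a stranded kit for polyadenylated RNA per the labels' protocols. The authors deposited 1 table of signal values, read counts divided by 1 size factor per library. DESeq2 1.19.11, R 3.6.0, Salmon 0.11.2 and the build GRCm38 appear, per the submitters' processing notes, with no role stated. Neither the annotation nor strand use in counting is given. Each column proved to be a multiple of the worth of 1 read, so whole reads could be recovered, with 100.0% of values whole within 0.01 even in the worst library. The step was read from low values and refined on higher ones in every column, and in 8 columns it lay near 1.

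Symbols came from GENCODE vM21 (18077 identifiers matched), and coordinates are 1-based on GRCm38. Limma 3.58.1 (R 4.3.3, variance trend, robust) was fitted to log2(value + 1), with all 12 groups of genotype, drug and sex in 1 fit. Effects average the contrasts in females and males. The filter, a mean of 5 or more, kept 17922 genes and left out 166. P-values were adjusted by Benjamini-Hochberg over all tested genes, with a threshold of 0.05. Log2(value + 1) understates changes of low genes such as Folr1 and Ttr. Because the values are normalized, limma was used and not a count test. EdgeR 4.0.16 and DESeq2 1.42.0 were run on the recovered reads as alternatives. For genotype under vehicle edgeR called 2648 genes and limma 2680. Other alternatives were the pseudocount, the filter, the scaling, the groups in the fit, a replicate block, library sets and leaving out libraries. The code was checked on simulated data.

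Library sets were cut from an average-linkage tree of 361 pseudogenes (distance 1 minus Pearson's r), with their number fixed at 3. Replicate numbers did not pair samples. Nothing says that libraries of a group came from separate litters, so p-values measure the spread between these samples. The members, the gene lists and the sets were chosen with earlier results of these data known. Genes named are the 9 members, up to 4 genes of a list with the smallest p in a comparison, and the 8 genes most like Ttr or Dcn. The further genes of the 2 libraries highest in Ttr were named after their values were seen.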

Additional observations from a re-analysis of the deposited data

Results flagged for a closer look

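In 6 of 99 combinations of a member and a group of 4 or more libraries, 1 library lay apart from the others by a gap test at the 95% level, and chance gives about 1 in 20. Folr1 was 19.5 normalized counts in the male HT fluoxetine library of replicate 5, against 3.01 to 3.79 in the other males of that group. This library also had the second highest Ttr. Folr1 was 0.915 in the male HT vehicle library of replicate 4, against 5.30 to 9.17 in the others. F5 was 27.4 in the male HT lithium library of replicate 2, against 43.3 to 51.0. Igf2 was 2530 in the female HT vehicle library of replicate 4, against 2961 to 3160. Igfbp2 was 825 in the female HT lithium library of replicate 3, against 1028 to 1056 in the other 3. Ogn was 121 in the male HT fluoxetine library of replicate 2, against 238 to 302. The part of library quality or dissection in these values was not tested.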

How the results depend on the processing

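Within 1 library set, and equally without set 3, 0 members passed for genotype under vehicle and 0 for lithium in WT, against 4 each over all libraries, while for genotype under fluoxetine 1 passed in either case. For fluoxetine in WT, 2 passed with DESeq2, 1 without the 2 libraries highest in Ttr, 1 without set 3, and 0 to 2 with single libraries left out (1 without WT fluoxetine female 1, 2 without WT vehicle male 6). For genotype under lithium 1 passed with only the groups compared in the fit. For lithium in WT the count ran from 2 (without WT lithium male 1) to 6 (without WT lithium female 5). With a replicate block, 3 members passed for fluoxetine in WT and 4 for lithium in HT. The numbers do not pair the samples (median r of deviations -0.00511 over 313 pairs, and 10 of 68 libraries matched their own number best). Averaged over the 3 treatments within sets, leaving out single libraries gave 2 to 3 members, with Igf2 lost without WT vehicle male 7 (limma adjusted p = 0.0546). Ogn over the 3 treatments passed with DESeq2 (adjusted p = 0.0393). The share of all genes called is not given for the replicate block, for the groups compared alone or for fits with libraries left out. Counts of members from those fits therefore cannot be set against such a share.

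Among the genotype and drug differences and the relations whose values are given, signs turned in these cases. Dcn by genotype under vehicle was 0.0041 within set 2 and 0.0743 without set 3, and over the 3 treatments 0.0193 without set 3 and -0.0297 to 0.0215 within sets with single libraries left out. Ogn for fluoxetine in WT was 0.0648 without set 3. For lithium in WT, Igfbp2 was 0.0021 and Ttr -0.11 within set 2 and without set 3. For fluoxetine in HT, Ttr was 0.1239 with edgeR, 0.1242 with DESeq2 and 0.0119 with the replicate block, against -1.10 with limma. For lithium in HT within set 2, Ttr was -0.4567 and F5 -0.1899. With single libraries left out, F5 ran from -0.0369 to 0.162 for lithium in HT and from -0.2113 to 0.1763 for lithium in WT, where it was 0.1308 with the replicate block. Without the 2 libraries farthest in Ttr, its r was -0.21 with Kl and -0.0238 with Sostdc1. Of the relations of Ttr, 0 passed with group means subtracted, in set 2 and in set 3, and of those of Dcn 0 in set 3. In set 1 the relation of Ttr farthest from 0 was that with Dcn (r = 0.57). In sets 1, 2 and 3 the r of Ttr was 0.25, 0.14 and 0.48 with Igfbp2 (0.0896 with group means subtracted) and 0.33, 0.28 and 0.45 with Ogn. It was -0.14 with Sostdc1 in set 1, -0.15 with F5 in set 2 and -0.0008 with Folr1 in set 3. The cause was not tested. Low reads limit Folr1 and Ttr, and no statement about their absence is made.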

Other observations

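Lists for the functions of single members were also counted, averaged over the 3 treatments with all libraries, where limma called 7.43% of all genes. In HT, 0 of 8 folate transport genes, the surroundings of Folr1, passed by limma, with a median log2 difference of 0.02. Of 5 genes of klotho and its FGF receptors 1 fell (median -0.04), of 7 coagulation genes 1 fell (median -0.03) and of 13 BMP and Wnt antagonists 1 fell (median -0.05). Of 9 genes of thyroid hormone and retinol transport, the field of Ttr, 2 rose and 1 fell (median 0.02). Ependymal cells line the ventricles beside the choroid plexus, and of 10 of their genes 1 rose, Rarres2, a secreted chemokine-like protein, by 0.25, with a list median of 0.16. Of 8 genes of meningeal macrophages 0 passed (median -0.13).

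Of the 9 genes of striatal neurons, 6 were among the 100 genes most like Kl with group means subtracted (median r of the list 0.43), against 2 of 22 choroid plexus genes (median r 0.20). The level of Kl and the summed level of 9 striatal genes had r = 0.19 over 68 libraries (permutation p = 0.114) and rho = 0.04 (permutation p = 0.746), with r = 0.13 without the 2 libraries farthest from the median. With group means subtracted it was 0.43. Within sets r was 0.30 in set 1, 0.42 in set 2 and -0.28 in set 3. Kl and the mean log2 level of the choroid plexus genes had r = 0.45. With group means subtracted, 2 of the 22 choroid plexus genes were among the 100 most like Folr1 (median r 0.13). For F5 and Sostdc1 it was 0 of 22 each (median r -0.004 and 0.06), so these members did not follow that list closely. For F5, 2 of 12 endothelial and mural genes were among the 100 (median r 0.14). These relations were looked at after the data had been seen.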
